A study of Mus musculus with 4 samples.

Results

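The 10 genes described here encode building blocks and binding partners of microtubules: the alpha-tubulins Tuba1a and Tuba1b, the beta-tubulins Tubb2b, Tubb3, Tubb4a and Tubb6, the stathmins Stmn1, Stmn2 and Stmn4, and the tubulin polymerization promoting protein Tppp. They were taken by name from 52636 Ensembl genes measured in each library, and were chosen by their RPKM values in these 4 libraries, because Tubb3 and Stmn4 were lower there together with oligodendrocyte genes. Their levels and differences between the groups are therefore given as a description, without a test.

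RNA was sequenced in bulk from sorted cells of the corpus callosum, the large white matter tract that joins the cerebral hemispheres. All mice carried the Mertk knockout label and ate chow with 0.2% cuprizone, a compound that is toxic to oligodendrocytes, for 4 weeks. The series sets AnnexinV-positive cells, described by the submitters as dying (2 libraries), against AnnexinV-negative cells, described as living (2 libraries). Annexin V binds phosphatidylserine, a lipid that dying cells turn to their outer surface. Both groups share the genotype, the diet and the time point, so neither an untreated nor a Mertk wild-type library enters the comparison. The sources used here do not state the allele, the age of the mice or the number of animals per library. Nothing says that replicates came from separate animals, so the p-values below measure the spread between these libraries, which may be technical.

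Microtubules are polymers of alpha- and beta-tubulin dimers. Vertebrates have several genes for each, called isotypes, which differ mainly near the carboxy terminus of the protein and are used in different proportions by different cells. Stathmins bind free tubulin dimers and favour disassembly, and TPPP bundles microtubules and is abundant in oligodendrocytes, where it seeds microtubules in the myelin-forming processes. Mutations of human TUBB4A cause a leukodystrophy, a disease of poorly formed myelin.

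Levels are in RPKM (reads per kilobase of gene, scaled for depth by the authors), and a single read over 1 kb came to 0.00833 to 0.0116 RPKM depending on the library. Mertk, labelled as knocked out in every library, was read at 62.6 and 53.6 RPKM in AnnexinV-positive and 18.8 and 29.9 RPKM in AnnexinV-negative cells. A whole-gene value does not separate deleted from remaining exons and so checks no genotype. Over the 10927 genes with at least 1 RPKM in 2 libraries, the median log2 difference (AnnexinV-positive minus AnnexinV-negative, log2(RPKM + 0.1)) was 0.45 on the deposited scale and -0.32 on the TPM scale, on which every library has the same sum. Small differences therefore change sign with the scale. Of 11 marker lists, homeostatic microglia markers had the highest sum in all 4 libraries, and mature oligodendrocyte markers differed most between groups by fold.

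The alpha-tubulin pair shows how much sequence tubulin genes share, which limits how reads can be assigned to them. Tuba1a and Tuba1b lie near each other on the minus strand of chromosome 15 (GRCm38, the assembly of mm10), and their coding sequences were identical at 1333 of 1356 positions (98.3%). Of all 50-base stretches in the transcripts of Tuba1a, 75.5% also occurred in a transcript of another gene, and for Tuba1b the share was 75.1%. It was 36.9% for Tubb2b and 18.9% for Stmn1, 0.89% for Stmn2 and 0.18% for Tubb4a. For Tubb3, Tubb6, Stmn4 and Tppp no stretch of this length was shared. The values of Tuba1a, Tuba1b and, to a lesser degree, Tubb2b and Stmn1 are thus uncertain, because the sources used here state neither the read length nor how reads with several matches were counted. Tuba1a, Tuba1b and Stmn1 also share exon bases with other annotated genes, and the library kit does not keep strand.

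The plot of levels by library shows all 10 genes. Tuba1a (chromosome 15, 98949837 to 98953703) is the alpha-tubulin best known from growing neurons and is also made by glia. It was at 19.4 and 18.7 RPKM in AnnexinV-positive cells, against 72.3 and 42.2 RPKM in AnnexinV-negative cells. The groups did not overlap, and the log2 difference was -1.53 (SE 0.27, limma). Tuba1b (chromosome 15, 98931425 to 98934565), an alpha-tubulin that most cells and especially dividing cells use, lay the other way. Its level was 8.91 and 11.4 RPKM in AnnexinV-positive and 5.64 and 4.11 RPKM in AnnexinV-negative cells, a log2 difference of 1.05 (SE 0.23). These groups did not overlap either, but the sign of Tuba1b turned to -0.15 when libraries were centred on microglial markers, and on the TPM scale its difference was 0.29.

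**Figure D1:**
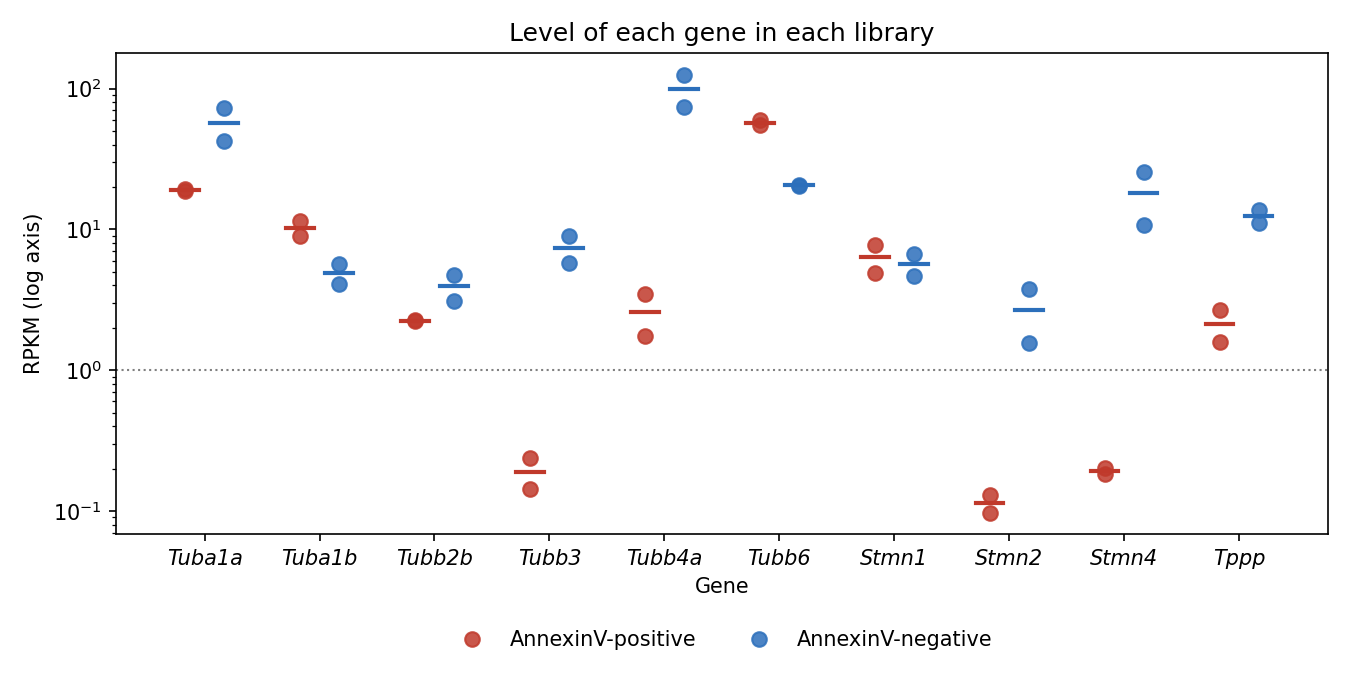
Level of the 10 microtubule genes in RPKM (log axis) in the 2 AnnexinV-positive (red) and 2 AnnexinV-negative (blue) libraries; points are libraries, bars are group means, and the dotted line marks 1 RPKM. Tubb3, Stmn2 and Stmn4 sit under 1 RPKM in both AnnexinV-positive libraries, Tubb6 and Tuba1b are higher there, and Stmn1 overlaps between groups.

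Among the beta-tubulins, Tubb4a and Tubb3 had far less RNA in AnnexinV-positive cells. Tubb4a (chromosome 17, 57080066 to 57087782, minus strand), the main beta-tubulin of oligodendrocytes, was at 3.48 and 1.75 RPKM in AnnexinV-positive cells, against 125 and 74.5 RPKM in AnnexinV-negative cells. Its mean was 2.61 ± 1.22 RPKM in AnnexinV-positive and 99.9 ± 35.8 RPKM in AnnexinV-negative cells (SD, n = 2 each), a 38.2-fold lower level and a log2 difference of -5.23 (SE 0.37). Tubb3 (chromosome 8, 123411424 to 123422015, plus strand) is the isotype commonly used as a neuronal marker. It was at 0.238 and 0.143 RPKM in AnnexinV-positive cells, which is 44 and 23 reads, against 8.97 and 5.82 RPKM, or 2012 and 1053 reads, in AnnexinV-negative cells. Every AnnexinV-positive library was below every AnnexinV-negative one for both genes, and the log2 difference of Tubb3 was -4.68 (SE 0.31).

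Tubb2b (chromosome 13, 34126748 to 34130466, minus strand), an isotype of the developing brain, differed by less. It was at 2.23 and 2.28 RPKM in AnnexinV-positive cells and 4.78 and 3.09 RPKM in AnnexinV-negative cells, with a log2 difference of -0.75 (SE 0.25). Tubb6 (chromosome 18), an isotype with wide expression outside neurons, was the beta-tubulin of the set with more RNA in AnnexinV-positive cells. Its levels were 59.8 and 55.0 RPKM in AnnexinV-positive and 20.4 and 20.8 RPKM in AnnexinV-negative cells, 2.79-fold higher by the means, with a log2 difference of 1.47 (SE 0.17). Replicates of Tubb6 lay close together in both groups, and its difference stayed above 0 on the TPM scale (0.70) and after centring on microglial markers (0.27).

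The 3 stathmins split. Stmn4 (chromosome 14, 66344296 to 66361680, plus strand), a membrane-anchored stathmin of the nervous system, was at 0.183 and 0.202 RPKM in AnnexinV-positive cells, from 35 and 33 reads, against 25.7 and 10.8 RPKM in AnnexinV-negative cells, from 5905 and 2003 reads. The means of 0.193 ± 0.0135 RPKM in AnnexinV-positive and 18.2 ± 10.5 RPKM in AnnexinV-negative cells (SD, n = 2 each) differed 94.7-fold, more than those of any other of the 10 genes. Its log2 difference was -5.84 (SE 0.39), which understates the change because 0.1 was added to a level near that size. Stmn2 (chromosome 3, 8509360 to 8561606, plus strand), a stathmin of growing and regenerating axons, was read at 0.0976 and 0.129 RPKM in AnnexinV-positive and 3.76 and 1.57 RPKM in AnnexinV-negative cells, with a log2 difference of -3.58 (SE 0.44). Both genes were low in each AnnexinV-positive library, while the AnnexinV-negative libraries differed from each other by more than 2-fold. Stmn1 (chromosome 4, 134468320 to 134473843, plus strand), the cytosolic stathmin that is abundant in dividing cells, was at 4.87 and 7.77 RPKM in AnnexinV-positive and 6.74 and 4.69 RPKM in AnnexinV-negative cells. Its groups overlapped, and its log2 difference of 0.13 (SE 0.29) turned to -0.65 on the TPM scale.

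Tppp (chromosome 13, 74009407 to 74035753, plus strand) was at 2.67 and 1.58 RPKM in AnnexinV-positive cells, against 13.8 and 11.1 RPKM in AnnexinV-negative cells. The groups did not overlap, the level was 5.86-fold lower by the means, and the log2 difference was -2.53 (SE 0.28). In AnnexinV-positive cells the order of levels, per length of gene, ran from Tubb6 through Tuba1a, Tuba1b and Stmn1 to Tubb4a, Tubb2b and Tppp, whose ranges overlapped, with Stmn4, Tubb3 and Stmn2 at the low end, of which Stmn4 and Tubb3 overlapped. In AnnexinV-negative cells Tubb4a and Tuba1a were at the top, at 74.5 to 125 RPKM for Tubb4a and 42.2 to 72.3 RPKM for Tuba1a, ranges that nearly met. Tubb6, Stmn4, Tppp and Tubb3 followed, of which Stmn4 overlapped with both Tubb6 and Tppp.

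Of the 10 genes, 6 were called lower and 2 higher in AnnexinV-positive cells by limma over all genes, where 9.26% of the genes tested were called lower, 30.8% higher and 40.0% in either direction. On the TPM scale 7 were called lower and 1 higher (19.1% and 1.03% of all genes, 20.2% in all), and centred on microglial markers 8 lower and 0 higher, also 0 at an unadjusted limma p under 0.05 (54.7% and 0.119%, 54.8% in all). Since the genes were chosen with this contrast known, nothing is read from these counts. Tubb2b and Stmn1 did not pass on the deposited scale. Tubb2b was among those called lower on the TPM scale, and both were with microglial centring. All 10 met the RPKM minimum, but Tubb3, Stmn2 and Stmn4 did so through the AnnexinV-negative libraries alone. Groups did not overlap for 9 of the 10 genes, 7 lower and 2 higher, beside 75.9% of all genes tested (14.9% lower and 60.9% higher). In the plot of 4 scales, Tubb4a, Tubb3, Stmn4, Stmn2, Tppp, Tuba1a and Tubb2b were below 0 on each scale.

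**Figure D2:**
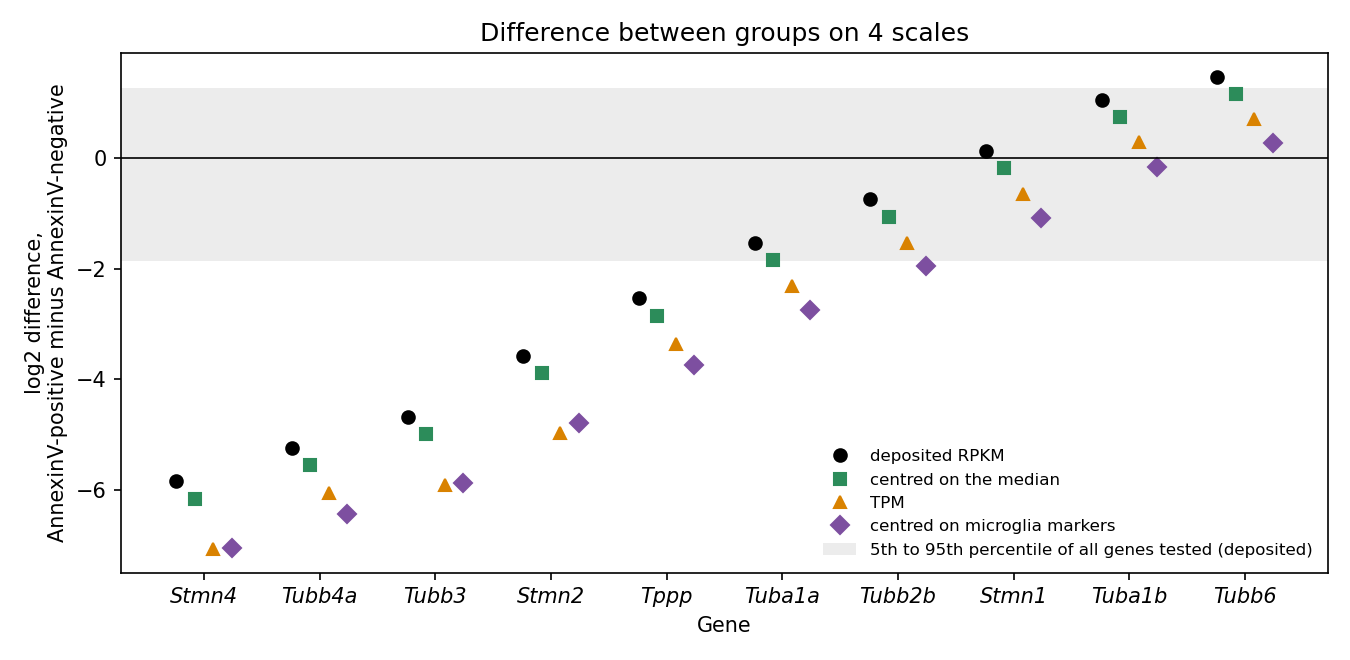
Difference in log2 units (AnnexinV-positive minus AnnexinV-negative) of the 10 genes on the deposited RPKM scale, centred on the median of the genes tested, on the TPM scale and centred on homeostatic microglia markers; the grey band holds the 5th to 95th percentile of all genes tested on the deposited scale (-1.85 to 1.27). Stmn4, Tubb4a, Tubb3, Stmn2 and Tppp lie under the band on every scale, while Stmn1 and Tuba1b change sign.

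Shares within a library do not depend on how libraries were scaled, and they describe which isotypes made up the tubulin RNA. The 8 beta-tubulin genes summed to 159 and 163 RPKM in AnnexinV-positive and 224 and 163 RPKM in AnnexinV-negative cells. Tubb4a made up 2.19% and 1.07% of that sum in AnnexinV-positive cells, against 55.9% and 45.8% in AnnexinV-negative cells, where it was the largest part. Tubb6 contributed 37.6% and 33.7% in AnnexinV-positive cells, against 9.10% and 12.7% in AnnexinV-negative cells. Tubb5, a beta-tubulin found in most cells that is not in the set, made up 35.7% and 41.3% in AnnexinV-positive and 14.5% and 18.6% in AnnexinV-negative cells. In AnnexinV-positive cells most beta-tubulin RNA was therefore Tubb5 and Tubb6. The share of Tubb3 was 0.150% and 0.0877% in AnnexinV-positive and 4.00% and 3.57% in AnnexinV-negative cells. That of Tubb2b was 1.40% in both AnnexinV-positive libraries and 2.13% and 1.90% in AnnexinV-negative cells. None of these shares overlapped between groups.

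The 8 alpha-tubulin genes summed to 49.0 and 52.6 RPKM in AnnexinV-positive and 87.4 and 55.0 RPKM in AnnexinV-negative cells. Tuba1a took 39.5% and 35.5% of the sum in AnnexinV-positive cells, against 82.7% and 76.7% in AnnexinV-negative cells. Tuba1b made up 18.2% and 21.8% in AnnexinV-positive and 6.45% and 7.47% in AnnexinV-negative cells, and its close relative Tuba1c 28.5% and 28.7% against 6.82% and 8.59%. The sequence shared by these 3 genes bears on these shares, and its part in them was not tested. An exact permutation test of 2 libraries against 2 cannot give a p below 0.33, so no test is given for shares.

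**Figure D3:**
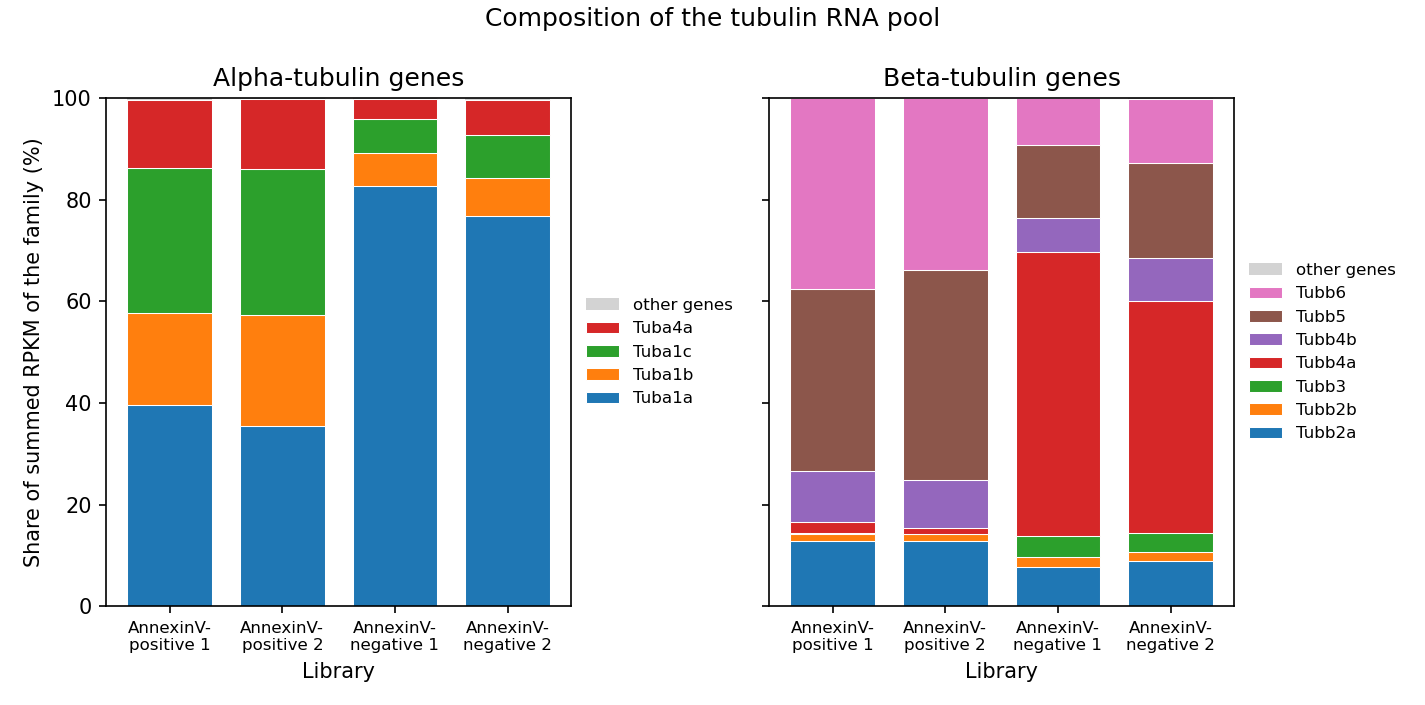
Share of each gene in the summed RPKM of the alpha-tubulin (left) and beta-tubulin (right) genes, in percent, for each of the 4 libraries; genes under 1% in every library are pooled as other genes. Tubb4a takes 55.9% and 45.8% of beta-tubulin RNA in the AnnexinV-negative libraries and 2.19% and 1.07% in the AnnexinV-positive ones, where Tubb5 and Tubb6 are the largest parts.

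Stretches upstream of 3 genes that were lower in AnnexinV-positive cells are shown. These genes have separate positions in the genome. The set was chosen with this contrast known, so nothing is read from their being low in the same libraries. Tuba1a was also lower and had a window, but its stretch is not printed. They come from RefSeq (GRCm38.p6), in which promoter windows were read for 5 of the 10 genes, namely Tubb3, Tubb4a, Tppp, Tuba1a and Tuba1b. Each is printed 5′ to 3′ on the strand of the gene, up to the first base of the gene in GENCODE, at chr8:123411303-123411423 for Tubb3 (plus strand), chr17:57087783-57087850 for Tubb4a (minus strand) and chr13:74009169-74009406 for Tppp (plus strand). Capitals mark matches, on either strand, to the GC box (GGGCGG), the CCAAT box, the TATA box (TATAAA), the E-box (CANNTG) or the core bound by SOX factors (ACAANG).
Tubb3: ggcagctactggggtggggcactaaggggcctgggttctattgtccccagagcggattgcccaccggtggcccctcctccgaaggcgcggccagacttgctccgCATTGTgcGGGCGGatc
Tubb4a: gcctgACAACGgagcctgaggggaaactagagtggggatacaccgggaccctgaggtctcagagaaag
Tppp: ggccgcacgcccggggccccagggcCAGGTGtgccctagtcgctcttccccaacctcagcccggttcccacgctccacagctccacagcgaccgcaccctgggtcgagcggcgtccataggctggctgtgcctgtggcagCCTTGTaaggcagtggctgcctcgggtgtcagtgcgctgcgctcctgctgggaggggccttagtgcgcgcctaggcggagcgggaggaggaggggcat
In the whole 250 bases before the RefSeq start, SOX core letters occurred at 2 places for Tubb3, 1 for Tubb4a and 1 for Tppp. The count was 0 for Tuba1a, also lower in AnnexinV-positive cells, and 0 for Tuba1b, higher there on the deposited scale. SOX core letters occurred in 36.3% of 32851 promoter windows of that length. E-box letters were found at 2 places for Tppp and at 1 each for Tuba1a and Tuba1b, and in 66.2% of all windows. GC boxes numbered 2 for Tubb3, 2 for Tuba1b, 1 for Tppp and 1 for Tuba1a, against 32.7% of windows with any. CCAAT was present once each in Tubb3 and Tuba1a (33.8% of windows), and TATAAA in none of these 5 windows (12.4% of all). The tracts before Tppp and Tuba1b were rich in G and C, with 71.6% and 75.6%, and those of Tubb3, Tubb4a and Tuba1a had 68.0%, 61.6% and 56.8%. A match to so few letters is a description and shows no binding.

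Other microtubule genes were read from 6 lists of 146 genes in all, of which 107 could be tested. Over these, 20 fell and 19 rose in AnnexinV-positive cells (limma, adjusted p under 0.05), or 18.7% and 17.8%, beside 9.26% and 30.8% of all genes tested. The median log2 difference was 0.26, against 0.45 over all genes. The 20 that fell were all also called lower on the TPM scale and after centring on microglial markers, while of the 19 that rose 0 were called higher by limma on either scale. At an unadjusted limma p under 0.05, 1 gene was higher and 52 lower on the TPM scale. After microglial centring 0 were higher and 87 lower at that threshold. At an adjusted p under 0.05, 39 and 85 of the 107 genes were called lower on these 2 scales. Without AnnexinV-positive replicate 1 or 2, 9 and 4 of these genes were higher. Of the 20 that fell, 15 were under 1 RPKM in both AnnexinV-positive libraries, so they were tested by virtue of their AnnexinV-negative level.

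**Figure D4:**
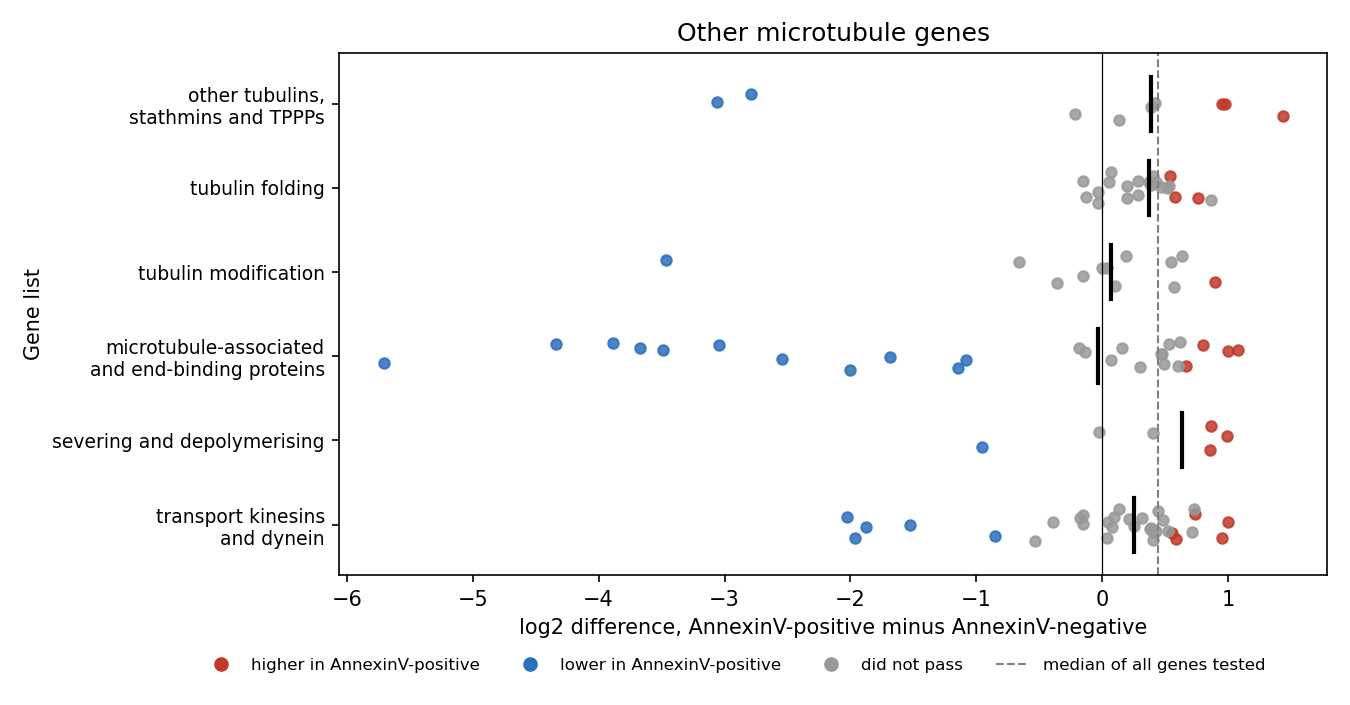
Difference in log2 units (AnnexinV-positive minus AnnexinV-negative, deposited scale) for each tested gene of 6 microtubule lists; red and blue points passed limma as higher or lower in AnnexinV-positive cells, grey ones did not, black bars are list medians and the dashed line is the median of all genes tested (0.45). The microtubule-associated and end-binding list reaches furthest down, to -5.70 for Slain1.

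Relatives of the set moved in both directions. Of 9 tested further tubulins, stathmins and TPPP genes, Stmn3 and Tppp3 fell. Stmn3, another stathmin of the nervous system, was at 0.312 and 0.389 RPKM in AnnexinV-positive and 4.54 and 2.92 RPKM in AnnexinV-negative cells (log2 difference -3.06, SE 0.30, limma adjusted p 0.00110). Tppp3, a TPPP relative, was at 0.607 and 0.798 RPKM in AnnexinV-positive and 7.11 and 4.13 RPKM in AnnexinV-negative cells (-2.79, SE 0.31, limma adjusted p 0.00167). Tuba1c, Tubb5 and Tuba4a rose by 1.43, 0.98 and 0.95 on the deposited log2 scale (limma adjusted p 0.00328, 0.00758 and 0.00926), but none of these passed on the TPM scale, where they were at 0.67, 0.20 and 0.19. Tuba1c and Tubb5 are general tubulins. Tuba1c shared 52.7% of its 50-base stretches with other genes, among them Tuba1b and Tuba1a, and Tuba4a 35.4%, mainly with the kinase gene Stk16. The shared part was 49.6% for Tubb2a, 41.3% for Tubb4b and 0.09% for Tubb5. Tubb5 and Tuba4a also did not pass without AnnexinV-positive replicate 2. Tubb2a (0.39), Tubb4b (0.13), Tubg1 (0.42), a gamma-tubulin of nucleating complexes, and Tubd1 (-0.21) did not pass.

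Microtubule-associated and end-binding proteins held most of the falls, 11 of 26 tested genes with 4 higher and a median of -0.03. Slain1, a protein that feeds growing plus ends, was at 0.699 and 0.527 RPKM in AnnexinV-positive cells, against 45.7 and 29.6 RPKM in AnnexinV-negative cells (log2 difference -5.70, SE 0.26, limma adjusted p 1.93e-04). Clip3 fell by 3.49 (SE 0.21, limma adjusted p 2.70e-04). Mapt, which encodes tau, fell by 4.34, Map1b by 3.05 and Map2 by 2.54 on the log2 scale. These proteins bind microtubules in neurons, and Mapt and Map1b are also made by oligodendrocytes.

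Motors for transport were divided as well, with 5 of 33 tested genes lower and 5 higher (median 0.26). Kif3c and Kif1a, kinesins known from axons, fell by 2.03 and 1.87 on the log2 scale (limma adjusted p 0.00176 and 0.00190). Kif5a, a neuronal heavy chain, fell by 1.96, while its ubiquitous relative Kif5b was at 0.59 on the deposited and -0.185 on the TPM scale. Of 12 tested enzymes that modify tubulin, Ttll7, which adds glutamate chains to beta-tubulin, fell by 3.47 (limma adjusted p 0.00124), and Svbp, the partner of the detyrosinating vasohibins, rose by 0.90 (limma adjusted p 0.0203) but was at 0.13 on the TPM scale. Tubulin folding factors had 0 of 21 lower by limma (also 0 at an unadjusted p under 0.05) and 3 higher (median 0.37), including Cct2 (0.58) and Cct8 (0.54) of the chaperonin, and 4 lower with 0 higher on the TPM scale, where both were below 0. Among severing and depolymerising proteins, 3 of 6 rose, with Katna1 at 0.86 and Kif2c at 0.99 (limma adjusted p 0.0108 and 0.0147), and 1 fell. On the TPM scale that list had 0 higher and 2 lower.

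Marker lists were summed in each library, as plotted by list, to set cell types beside the 10 genes, which differed in both directions. Tubb3 and Stmn4 were chosen as low with oligodendrocyte genes in these libraries, so lower oligodendrocyte markers beside them restate that choice. The 15 mature oligodendrocyte markers, among them Cnp and Mbp, summed to 46.4 and 34.5 RPKM in AnnexinV-positive and 975 and 530 RPKM in AnnexinV-negative cells, and all 15 were lower by limma on each of the 4 scales. Neuroblast markers summed to 1.72 and 2.12 RPKM in AnnexinV-positive and 22.9 and 12.3 RPKM in AnnexinV-negative cells, with 4 of 4 tested genes lower, among them the forebrain interneuron factors Dlx2 (log2 difference -4.66) and Dlx1 (-4.19), and Cd24a (-2.41). Neuron markers summed to 2.11 and 2.09 RPKM in AnnexinV-positive and 4.80 and 4.36 RPKM in AnnexinV-negative cells, with 9 of 10 under 1 RPKM in every library. The one neuron marker tested, Snap25, differed by -0.62 and did not pass on the deposited scale, but was called lower on the other 3 scales. Gad2 and Gad1, markers of inhibitory neurons that were too low to be tested, were 7.35-fold and 7.39-fold lower by their means, at 0.109 and 0.0791 RPKM in AnnexinV-positive and 0.801 and 0.584 RPKM in AnnexinV-negative cells. No marker of any list was at 0 in a library. The part of each cell type in the levels of Tubb3, Stmn2, Stmn4 and the others was not tested. In bulk RNA, fewer cells of a type and less RNA per cell cannot be told apart.

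**Figure D5:**
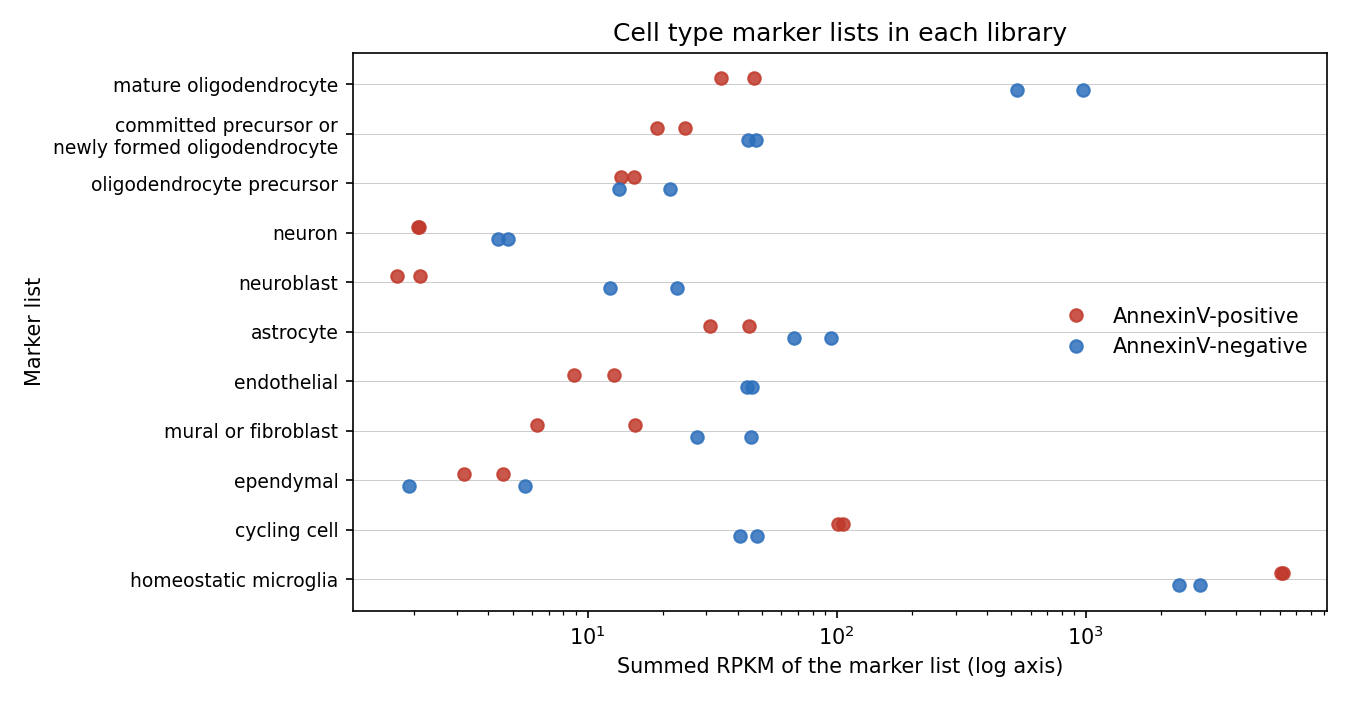
Summed RPKM (log axis) of 11 fixed marker lists in the 2 AnnexinV-positive (red) and 2 AnnexinV-negative (blue) libraries. Mature oligodendrocyte markers sum to 46.4 and 34.5 RPKM against 975 and 530 RPKM, and homeostatic microglia markers to 6070.3 and 6200.5 against 2362 and 2875 RPKM.

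Committed precursors and newly formed oligodendrocytes had 24.6 and 19.0 RPKM in AnnexinV-positive and 47.3 and 44.2 RPKM in AnnexinV-negative cells (4 of 7 lower, 1 higher). Oligodendrocyte precursors overlapped, with 13.7 and 15.3 against 13.3 and 21.5 RPKM (3 of 4 lower). Astrocyte, endothelial and mural or fibroblast lists had 8 of 10, 6 of 8 and 3 of 5 tested genes lower. Their sums were 31.0 and 44.4, 8.83 and 12.8, and 15.4 and 6.29 RPKM in AnnexinV-positive cells, against 94.8 and 67.6, 43.8 and 45.8, and 45.3 and 27.4 RPKM in AnnexinV-negative cells. Ependymal markers, from ciliated cells rich in tubulin, had 4.59 and 3.19 RPKM in AnnexinV-positive and 5.61 and 1.91 RPKM in AnnexinV-negative cells and overlapped (0 of 1 tested passed). Homeostatic microglia markers had 14 of 14 higher on the deposited scale but 1 on the TPM scale. Cycling-cell markers summed to 101 and 106 RPKM in AnnexinV-positive and 40.9 and 47.8 RPKM in AnnexinV-negative cells, with 17 of 18 higher on the deposited scale, 1 on the TPM scale and 0 after centring on microglial markers.

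Set against the summed oligodendrocyte markers of the same library, the genes separated further. Per 100 RPKM of those markers, Tubb4a stood at 7.49 and 5.07 RPKM in AnnexinV-positive and 12.8 and 14.1 RPKM in AnnexinV-negative cells. Stmn4 had 0.394 and 0.586 against 2.63 and 2.03 RPKM, and Tubb3 had 0.513 and 0.415 against 0.920 and 1.10 RPKM on the same basis. All 3 genes were lower in AnnexinV-positive cells on this basis too, without overlap. Stmn2 overlapped on this basis, with 0.210 and 0.374 RPKM in AnnexinV-positive and 0.385 and 0.296 RPKM in AnnexinV-negative cells. Tppp, at 5.76 and 4.58 against 1.41 and 2.10 RPKM, and Tuba1a, at 41.7 and 54.2 against 7.41 and 7.95 RPKM, were higher per marker in AnnexinV-positive cells. Tubb6 per 100 RPKM of microglial markers was 0.984 and 0.887 RPKM in AnnexinV-positive and 0.864 and 0.722 RPKM in AnnexinV-negative cells, and Tuba1b overlapped there (0.147 and 0.184 against 0.239 and 0.143 RPKM). No test is attached to these ratios.

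AnnexinV-negative replicate 1 held more RNA than replicate 2 of 9 of the 10 genes, all but Tubb6. The ratio of replicate 1 to replicate 2 was 2.38 for Stmn4, 2.40 for Stmn2, 1.71 for Tuba1a, 1.68 for Tubb4a and 1.54 for Tubb3 and Tubb2b. It was 1.44 for Stmn1, 1.37 for Tuba1b, 1.23 for Tppp and 0.983 for Tubb6. Among marker sums it was 2.94 for ependymal, 1.86 for neuroblast, 1.84 for mature oligodendrocyte, 1.65 for mural or fibroblast and 1.40 for astrocyte markers, and it lay between 0.621 and 1.10 for the other 6 lists. The part of any of these cell types in the spread was not tested.

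Genes with the most similar profile over the 4 libraries were sought by Euclidean distance between log2 profiles centred on each gene's mean, among 9795 other protein-coding genes tested. Nearest to Tubb3 were Insc (distance 0.0794 log2 units), Car2 (0.185) and Tspan2 (0.198). Nearest to Stmn4 were Hapln2 (0.246), Nkx6-2 (0.258) and Mog (0.420). Tubb3 and Stmn4 were chosen for being low with oligodendrocyte genes in these libraries, so oligodendrocyte genes near them restate that choice. Nearest to Tuba1b were Spc25 (0.0533), Emp3 (0.0557) and Cenpi (0.0844), of which Spc25 and Cenpi encode kinetochore proteins. Nearest to Stmn1 were Psmg3 (0.0193), Dynll1 (0.0412), a dynein light chain, and Ndufb2 (0.0807). With 4 libraries such profiles hold little beyond the group difference and the order of replicates.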

How the data were processed

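RNA-seq values of 4 libraries were grouped by their titles, 2 as AnnexinV-positive and 2 as AnnexinV-negative. The submitters' processing notes name GSNAP as a tool and mm10 as the build. Versions, the gene counter, gene lengths and filters are not stated in the sources at hand. The deposited files hold 1 value per gene with no unit in the header. The values were read as RPKM normalized by the authors: multiplied by the exonic length in GENCODE vM21, 79.6% to 83.6% of the values worth under 100 reads fell within 0.01 of a whole number of reads. On that basis 67448000 and 60136000 reads fell in genes in the AnnexinV-positive libraries, against 50524000 and 43244000 in the AnnexinV-negative ones. A read over 1 kb was worth 0.0101 and 0.0116 RPKM in AnnexinV-positive and 0.00833 and 0.0103 RPKM in AnnexinV-negative libraries. The deposited scale thus did not even out the reads in genes between the groups. Symbols matched 52403 of 52636 genes.

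Values were taken as log2(RPKM + 0.1), a scale that understates the change of low genes, and genes with at least 1 RPKM in 2 libraries were tested. The groups were compared by limma 3.58.1 (R 4.3.3, prior variance following mean level, no covariates), and calls required a Benjamini-Hochberg adjusted p below 0.05 across all 10927 genes. The step was also run on simulated counts with as many genes raised as lowered and no shift between groups. Those settings differ from these libraries, so the run does not vouch for the calls given here. Other scales, pseudocounts, filters, no trend, a replicate block and each library left out were tried. Coding identity used Biopython 1.88.

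The genes and lists were chosen with earlier results of these data known. Genes named by rule are the 10 of the set, the tested genes of the list of other tubulins, stathmins and TPPP genes, the 2 genes with the smallest p in each further microtubule list, the 3 most abundant genes of each marker list (given where they bear on the set) and the 3 nearest profiles of Tubb3, Stmn4, Tuba1b and Stmn1. Mapt, Map1b, Map2, Kif5a and Kif5b were named after their values were seen.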

Additional observations from a re-analysis of the deposited data

How the results depend on the processing

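Each group has 2 libraries, and the direction of small differences depended on the scale between libraries. Over all genes, 3364 were higher and 1012 lower; centred on the median 1133 were higher, on the TPM scale 113 higher and 2091 lower, centred on microglial markers 13 higher and 5973 lower, and with no filter 1865 higher and 2489 lower. Leaving out 1 library gave 1297 to 3356 higher, 1749 without AnnexinV-positive replicate 1 and 1297 without replicate 2. Of the other microtubule genes, 19 were higher and 20 lower; centred on the median 4 were higher, on the TPM scale 0 higher and 39 lower, centred on microglial markers 0 higher and 85 lower, and with no filter 9 higher. Leaving out 1 library gave 4 to 21 higher. The replicate numbers are not stated to mark a shared animal or day. The difference of replicate 1 minus replicate 2 was weakly and negatively correlated between the groups (correlation -0.215 across 10927 genes, which are not independent). With the replicate number as a block, 12 microtubule genes were higher and 20 lower, and 2443 and 957 over all genes. A crossed pairing, chosen after seeing the data, gave 41 higher and 21 lower microtubule genes, and 4891 and 1136 over all genes. The differences in isotype share kept their direction when each library was left out, from -54.2 to -44.1 percentage points for Tubb4a and 22.8 to 26.6 for Tubb6. Directions turned, on the log2 scale, when libraries were centred on microglial markers, for Tuba1b (-0.15), Stmn1 (-1.08), Tubb2a (-0.81), Tubb4b (-1.07), Tubb5 (-0.23), Tuba4a (-0.25), Tubg1 (-0.78), Cct2 (-0.63), Cct8 (-0.67), Svbp (-0.31), Katna1 (-0.34) and Kif2c (-0.22), on the TPM scale for Stmn1 (-0.65), Tubb2a (-0.38), Tubb4b (-0.64), Tubg1 (-0.34), Cct2 (-0.20) and Cct8 (-0.24), and centred on the median for Stmn1 (-0.19) and Tubb4b (-0.18). Stmn1, at 0.13 on the deposited scale and not called there, was also at -0.21 without AnnexinV-positive replicate 2 and -0.13 without AnnexinV-negative replicate 2. Cct2 and Cct8 also did not pass when any library was left out.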
